A study of Homo sapiens with 8 samples.

Results

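The end of a 4-thiouridine (4sU) chase was examined in THP-1, an established human line of acute monocytic leukaemia cells, by setting the library harvested at 12 h of chase against the library harvested at 8 h. These are 2 of the 8 libraries of the series. All cells behind them had the same treatment: 30 µM 4sU for 12 h, with the medium exchanged every 3 h, a wash in PBS, and then growth in medium with 3 mM uridine. The 5 libraries taken between 0 and 2 h of chase (0 h, 20 min, 40 min, 1 h and 2 h) gave the levels from which each gene started, and 1 library from cells without 4sU gave the background of the label. Each time had 1 library, so no difference between 8 h and 12 h could be tested or checked in a replicate. The labels do not say whether the times came from separate cultures, and the hour of harvest and the library itself cannot be told apart. Genes entered when their most covered 3′ end segment had a mean of 100 or more total reads in the 2 late libraries, which left 8431 of the 15380 genes with a read.

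SLAM-seq reads RNA age from a uridine analogue. 4sU enters RNA while it is being made, iodoacetamide modifies its thiol group, and the modified base pairs with G during reverse transcription, so that a T-to-C change marks a labelled read. Once uridine replaces 4sU, the labelled share of a gene's reads falls both because old molecules are degraded and because new unlabelled molecules join the pool. A stable mRNA such as one for a ribosomal protein therefore carries label late into a chase, whereas the mRNA of an unstable gene, such as an early response transcription factor, is by then almost all newly made and its total level shows recent production and decay.

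The 8 h library held 11224018 gene reads and the 12 h library 8301033, and 3 reads corresponded to 0.267 and 0.361 CPM (counts scaled to a common library total). Labelled reads made up 10.8% of all gene reads at 8 h and 5.53% at 12 h, against 30.6% at 0 h and 0.0121% without 4sU. The myeloid identity of the line was visible in both libraries: the 14 myeloid markers summed to 3015 CPM at 8 h and 3223 at 12 h. CD33, a surface receptor of myeloid cells, stood at 87.1 and 89.3 CPM, and MPO, the azurophil granule peroxidase, at 1.51 and 0.964. Lymphoid markers summed to 3.92 and 5.06 CPM, erythroid markers to 0 and 1.45, and epithelial markers to 0.445 and 1.08. MS4A1 and CD79A, which define B cells, had no read in either. Intervals given below are exact 95% intervals for counting error only, since reads without molecular identifiers are not independent molecules.

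Total RNA per gene was close between the late libraries. The median log2 ratio of total CPM, 12 h over 8 h, was -0.03, with 90% of genes from -0.49 to 0.41. A ratio of 1.5-fold or more either way was found for 399 genes (4.73% of those compared), of which 164 were higher at 12 h (1.95%) and 235 lower (2.79%), and the counting interval of each of the 399 lay clear of equality. The same 1.5-fold rule between neighbouring earlier libraries gave 0.334% of genes from 0 h to 20 min, 0.467% from 20 to 40 min, 1.07% from 40 min to 1 h, 2.12% from 1 to 2 h, and 22.7% from 2 to 8 h. The 12 h and 8 h pair thus differed at more genes than any pair up to 2 h and at fewer than the 2 h and 8 h pair. FNDC3B and UBE2Z lay just inside the limit for higher genes at 1.5-fold, and UGCG just outside at 1.49-fold. In bulk RNA, a change in how many cells make a transcript and a change in RNA per cell cannot be told apart.

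**Figure D1:**
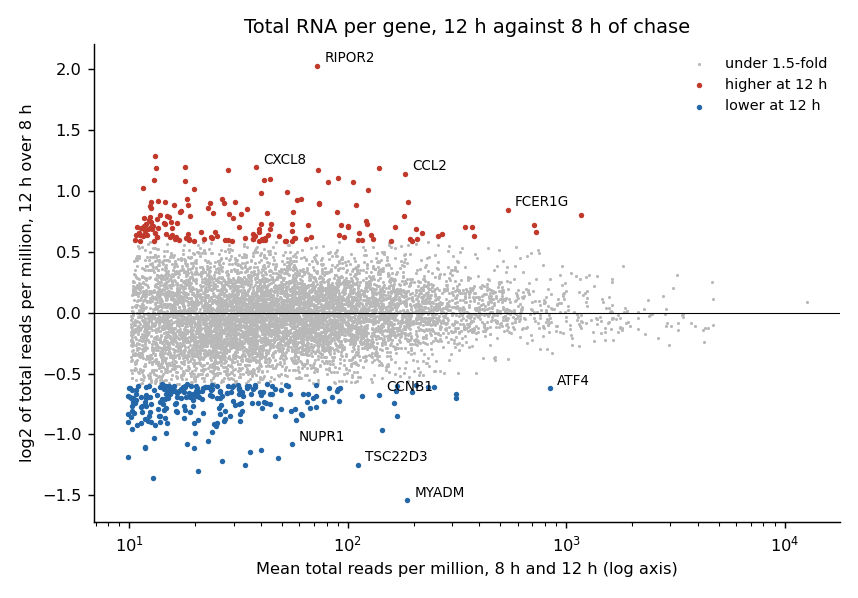
Log2 ratio of total CPM, 12 h over 8 h (vertical), against the mean of both libraries (horizontal, log axis), 1 point per gene for 8431 genes. Red points are the 164 genes that were 1.5-fold or more higher at 12 h, blue points the 235 that were lower, and RIPOR2 and MYADM lie at the extremes.

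Cytokine transcripts stood higher at 12 h. Of 23 genes of the inflammatory cytokine and NF-kB list, 20 had a ratio above equality, against 3770 of all 8431 genes. In that list 4 genes were past 1.5-fold upwards (17.4%, against 1.95% of all genes) and none downwards (2.79% of all genes), with a median log2 ratio of 0.23 against -0.03 over all genes. CCL2, the chemokine that draws monocytes, read 115 CPM at 8 h and 253 at 12 h, after 28.6 to 42.6 in the 0 to 2 h libraries, a ratio of 2.20 (2.05 to 2.36). CXCL8, the neutrophil chemokine, went from 23.3 to 53.1 CPM (log2 1.19, 0.97 to 1.42). Its 12 h level was close to the 49.8 it had at 40 min, and its 2 h level was 11. IL1B, a fever-inducing cytokine, read 76.6 and 141 CPM after 12.7 to 26.4 between 0 and 2 h, and NFKBIZ, a nuclear regulator of NF-kB targets, 100.4 and 156. CCL2 and IL1B were thus already above their early range at 8 h and stood further above it at 12 h. None of these transcripts kept much label: the labelled share of CCL2 was 63.3% early (0 to 40 min pooled), then 1.48% at 8 h and 0.382% at 12 h, and that of IL1B 49.3%, 0.581% and 0.171%. NFKBIA, the inhibitor that NF-kB itself induces, read 613 and 627 CPM, and TNFAIP3, which dampens the same pathway, 116 and 136. Without 4sU, CCL2 and IL1B had no read and TNFAIP3 stood at 3.43 CPM.

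Among the genes with more RNA at 12 h were several whose 3′ UTR carries the heptamer TATTTAT, the core of AU-rich elements to which decay factors such as ZFP36 proteins bind. In GENCODE 29 UTRs it occurred on the sense strand in 45.7% of the 164 higher genes, 32.3% of 229 lower genes and 34.1% of all 8335 compared genes with a UTR. These sets differ in UTR length, with medians of 1868.5, 941 and 1267 bases, and per 1000 bases of UTR the heptamer occurred 0.396, 0.351 and 0.313 times, so that both the higher and the lower genes exceeded all genes on that scale. CXCL8 had 4 matches in 1252 bases, IL1B 4 in 610, PIM1 4 in 1335, ZFP36L1 3 in 1871 and BCL2 1 in 5279. CCL2 had none in 376 bases. The first match of each is given with its flanks, since these transcripts stood higher at 12 h, and capitals mark the heptamer.
CXCL8: tgtaaagtatTATTTATttgaatctac
IL1B: accgcttcccTATTTATttatttattt
PIM1: caatgttatgTATTTATttatttattt
ZFP36L1: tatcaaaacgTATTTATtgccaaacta
BCL2: aaaaaagattTATTTATttaagacagt
In the promoter table of RefSeq (GRCh38.p14), which covers 250 bases before to 50 after a gene's start, the NF-kB motif GGGA, any base, TTTCC occurred on either strand in 6 of 20 listed genes and in 0.674% of 6825 promoters of compared genes. Of the 3 higher genes with a promoter in that table, NFKBIZ held the motif and IL1B and CXCL8 did not. The motif was held by 5 of the 17 other listed genes.

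Early response and feedback genes were split, with more of them higher. Of 28 compared, 6 were past 1.5-fold upwards and 1 downwards, where 1.95% and 2.79% of all genes were, and their median log2 ratio was 0.19. ZFP36L1, whose product recruits decay enzymes to AU-rich mRNAs, read 44.9 and 101 CPM (log2 1.17), above the 21.7 to 31.5 of the first 2 h. EGR1 read 13.1 and 26.5, FOS 10.9 and 18.8, FOSL2 13.9 and 24.1, and SOCS3, a feedback inhibitor of cytokine receptors, 26.8 and 53. For FOS and SOCS3 these late values lay far under their own earlier peaks, which were 355 CPM at 40 min for FOS and 178 at 1 h for SOCS3. KLF2, a zinc-finger transcription factor of resting cells, was the member that was lower, at 20.3 and 12.0 CPM (log2 -0.75). All 28 had lost their label, against 38.1% of all genes. The rule used here asks for under 10% of the pooled 0 to 40 min share in both late libraries. The serine/threonine kinases PIM1 and PIM2, both induced by cytokine signalling, were among the 12 highest ratios of genes with a mean of 200 or more reads: PIM1 read 57.1 and 123 CPM and PIM2 68.2 and 143. Both had stood higher at 2 h (89.9 and 114) than at 8 h, so their values dipped at 8 h and were highest of all chase libraries at 12 h. PIM2 kept 20 labelled reads at 8 h and 1 at 12 h.

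**Figure D2:**
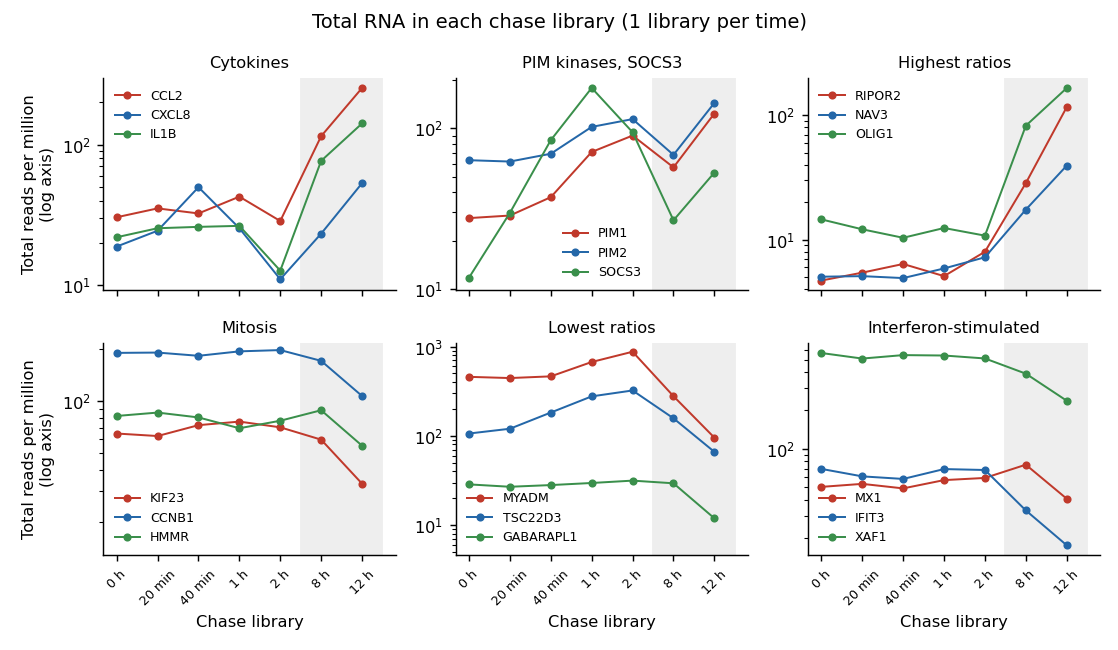
Total CPM (log axes that differ between panels) in each of the 7 chase libraries, 1 library per time and so without error bars, for 3 genes per panel, with the 2 late libraries shaded. CCL2 stands at 115 and 253 CPM in the shaded part, SOCS3 peaks at 178 at 1 h, and MYADM stands at 95.4 at 12 h.

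Regulators of leukaemia cells did not move as 1 block. Of 32 compared genes of that list, 4 were past 1.5-fold upwards (12.5%, against 1.95% of all genes) and none downwards (2.79% of all genes), with a median log2 ratio of 0.15. MYC, the growth-promoting transcription factor, read 19.0 and 35.4 CPM (log2 0.90, 0.64 to 1.16), and BCL2, the anti-apoptotic membrane protein, 24.7 and 44.5 (log2 0.85). CEBPD, a myeloid transcription factor, read 210 and 328 CPM, and IKZF1, the lymphoid and myeloid factor Ikaros, 153 and 232. At 12 h all 4 were above their 0 to 2 h ranges. Other regulators stayed close: MYB, a progenitor transcription factor, read 153 and 162 CPM, HOXA9, which the KMT2A fusion of such leukaemias maintains, 102 and 96.0, and MCL1, a short-lived anti-apoptotic protein, 741 and 705. CDK6, the G1 kinase, read 360 and 519 and stayed just under the limit at a log2 ratio of 0.53. Of 28 apoptosis regulators, 2 were past the limit upwards (BCL2 and BNIP3) and 2 downwards, with a median log2 ratio of -0.10. Of the lower pair, BCL2L1, a relative of BCL2 with the same anti-apoptotic role, read 20.8 and 11.9 CPM (log2 -0.81), and PMAIP1, which encodes the pro-apoptotic protein NOXA, 53.9 and 34.0 (log2 -0.67).

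Surface and oxidase genes of monocytes were higher at 12 h, while granule genes were not. Of 37 myeloid granule and surface genes, 6 were past 1.5-fold upwards (16.2%, against 1.95% of all genes) and none downwards (2.79% of all genes). CD14, the lipopolysaccharide co-receptor, read 35.4 and 70.1 CPM (log2 0.99), against 18.8 to 23.2 before 8 h. FCER1G, the signalling chain of Fc receptors, read 387 and 694 (log2 0.84, 0.79 to 0.90), and its 4341 and 5760 reads make it one of the best covered of the 164 higher genes. TLR2, which senses bacterial lipoproteins, read 18.5 and 28.6 CPM, and the scavenger receptor CD36 24.1 and 39.3. The NADPH oxidase subunits CYBB and NCF1 read 203 and 315, and 170 and 268. NCF1 has close pseudogene copies, so reads may be shared between them. Each of the 6 was above its own 0 to 2 h range at 12 h. Granule and lysozyme genes stood lower at 12 h. ELANE, neutrophil elastase, read 834 and 680 CPM, and PRTN3, proteinase 3, 250.2 and 175. CTSG, cathepsin G, read 69.7 and 49.8, and LYZ 245 and 230. Their log2 ratios ran from -0.52 for PRTN3 to -0.09 for LYZ. None of these 4 was past 1.5-fold. The median log2 ratio of all 37 genes was 0.03.

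The largest ratio of the comparison belonged to RIPOR2, an inhibitor of the small GTPase RHOA. It read 28.5 CPM at 8 h and 116 at 12 h, 4.08-fold higher, after 4.71 to 8.01 between 0 and 2 h. NAV3, a microtubule-associated protein, went from 17.5 to 39.4 CPM after 4.93 to 7.24, and OLIG1, a transcription factor best known from oligodendrocytes, from 82.4 to 165 after 10.4 to 14.6. These 3 transcripts were each above their early range at 8 h and further above it at 12 h. Without 4sU, RIPOR2 and NAV3 stood at 0.343 CPM each. EPHB1, an ephrin receptor kinase, read 26.5 and 56.3 CPM, and BCL11A, a zinc-finger repressor, 28.2 and 60.1. Another pattern was seen for the membrane enzyme carboxypeptidase M, whose gene symbol is also CPM, and for the chemokine CXCL14: carboxypeptidase M read 84.3 and 192 CPM with 120.2 to 160.4 in the first 2 h, and CXCL14 52.1 and 110 with 52.1 to 65.1. The former was thus under its early range at 8 h and over it at 12 h. Smaller groups added HK2, the inducible hexokinase (9.71 and 15.9 CPM), P4HA1, a collagen prolyl hydroxylase (30.0 and 48.3), and BNIP3, a mitophagy receptor (12.0 and 18.6). The last 2 were the 2 of 16 hypoxia-responsive genes past the limit (12.5%, against 1.95% of all genes), and the median log2 ratio of that list was 0.21.

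Mitotic transcripts stood lower at 12 h, and of the 30 lists theirs held the highest number of genes past 1.5-fold downwards. Of 40 mitosis genes, 38 had a ratio under equality, against 4661 of all 8431 genes. Past 1.5-fold downwards were 11 (27.5%, against 2.79% of all genes) and none upwards (1.95% of all genes). The median log2 ratio was -0.49. With TMM or median-of-ratios scaling 8 of the 40 were past the limit and 38 stood under equality. KIF23, a kinesin of the cytokinetic midzone, read 59.8 and 33.2 CPM (log2 -0.85, -1.05 to -0.64). KIF2C, a microtubule-depolymerising kinesin, read 203 and 121, TPX2, a spindle assembly factor, 242 and 154, and the cyclins CCNB1 and CCNA2 171 and 107, and 203 and 130.1. HMMR, CKS2, TTK, CDC25C, CENPE and SGO2, with roles in the spindle, the kinetochore and entry into mitosis, made up the rest of the 11 with log2 ratios between -0.68 and -0.60. The direction between the late libraries was not that of the step before: at 8 h the list had stood over the early libraries, with a median log2 difference of 0.51. KIF2C, TPX2, CCNA2, HMMR, TTK, CDC25C and CENPE were above their 0 to 2 h range at 8 h, as was PLK1, the mitotic kinase (449.8 CPM at 8 h and 319 at 12 h, after 179 to 197). CCNB1 and CKS2 were under their early range in both. CKS1B, a CDK subunit, had the highest ratio of the list at 0.12, and PTTG1, securin, stood at 433 and 465. Of 43 genes of DNA replication none was past the limit, with 2.79% of all genes past it downwards and 1.95% upwards. Under equality were 29 of the 43, against 4661 of all 8431 genes. The median log2 ratio was -0.09, against -0.03 over all genes. CDC45, RPA2, RFC4 and PRIM1 lay just short of the limit at -0.58, -0.58, -0.57 and -0.56, and the difference between the replication and mitosis lists was not tested.

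The cell-cycle element TTTGAA, bound by the DREAM complex that represses cell-cycle genes in resting cells, occurred on either strand in the 300-base RefSeq promoter of 23 of 34 mitosis genes and in 10.1% of 6825 promoters of compared genes. It was held by 3 of the 9 members past the limit with a promoter in the table (KIF23, CKS2 and HMMR) and by 20 of the 25 other members. The windows below, on GRCh38.p14 and written along the gene, are shown for the gene with the lowest ratio and for 2 well-known members, with the element in capitals.
KIF23: gattggcccgTTTGAAatgcgccaggcggg
PLK1: cagcgccgcgTTTGAAttcggggaggagcg
CCNB2: cgacgcggtaTTTGAAtcctggaacaaggc
They lie at chr15:69414284-69414313, chr16:23678850-23678879 and chr15:59105107-59105136, all on the plus strand. CCNB2, a mitotic cyclin, read 156 and 131 CPM (log2 -0.25).

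Interferon-stimulated genes were lower at 12 h in part. Of 26, 5 were past 1.5-fold downwards (19.2%, against 2.79% of all genes) and none upwards (1.95% of all genes). Under equality were 19, against 4661 of all 8431 genes, and the median log2 ratio was -0.16. XAF1, a pro-apoptotic zinc-finger protein, read 388 and 238 CPM (log2 -0.70, -0.78 to -0.63). MX1, an antiviral GTPase, read 75.2 and 40.7, and IFIT3, an inhibitor of viral translation, 33.0 and 17.6. IFI44 and IFI44L read 13.2 and 8.31, and 50.2 and 31.9. XAF1 and IFIT3 were under their 0 to 2 h range (510.9 to 564 and 58.2 to 69.7) in both late libraries, whereas MX1 and IFI44L were over it at 8 h and under it at 12 h. IFI6, an abundant mitochondrial member, did not differ beyond its interval (482 and 477), and BST2, the tetherin that holds virions at the cell surface, stood at 126 and 163. Cells without 4sU had 2.06 CPM of MX1, 8.57 of IFIT3 and 27.8 of XAF1, under each of the values in the chase libraries.

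The interferon response motif GAAA, any 2 bases, GAAA occurred on either strand in the RefSeq promoter of 13 of 20 listed genes, against 2.93% of 6825 promoters. Of the 5 lower genes, IFIT3, MX1, IFI44 and IFI44L held it and XAF1 did not, and it was held by 9 of the 15 other members, so that the members past the limit and the rest both carried it often. Windows of 2 lower genes and of IFI6 are given to show the element in genes that did and did not differ. Capitals mark the motif, read on the opposite strand in IFIT3.
IFIT3: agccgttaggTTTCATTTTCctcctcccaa
MX1: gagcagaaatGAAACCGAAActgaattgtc
IFI6: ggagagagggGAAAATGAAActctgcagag
On GRCh38.p14 they are chr10:89327831-89327860 and chr21:41420559-41420588 on the plus strand, and chr1:27672329-27672358 on the minus strand.

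Several stress response genes were lower at 12 h. Of 30 genes of the integrated stress response and amino-acid supply, 27 had a ratio under equality, against 4661 of all 8431 genes. Their median log2 ratio was -0.19, against -0.03 over all genes. Past 1.5-fold downwards were 3 (10%, against 2.79% of all genes) and none upwards (1.95% of all genes). ATF4, the transcription factor of the pathway, read 1020.3 CPM at 8 h and 663 at 12 h after 757 to 906 in the first 2 h (log2 -0.62, -0.67 to -0.58). Its target NUPR1, a small stress-induced chromatin protein, read 75.1 and 35.5, and STC2, a secreted glycoprotein that is also induced by ATF4, 26.5 and 13.4. All 3 were above their early range at 8 h, and ATF4 and NUPR1 were below it at 12 h. DDIT3, the pro-apoptotic factor CHOP, read 34.7 and 28.8 and ASNS, asparagine synthetase, 22.7 and 20.1, neither past the limit. Of 32 heat shock genes and chaperones, 18 were above equality, against 3770 of all 8431 genes. The 3 past the limit were lower (9.38%, against 2.79% of all genes). BAG3, a co-chaperone of HSP70, read 62.6 and 36.1 CPM, and the HSP70 genes HSPA1A and HSPA1B 79.2 and 44.2, and 114 and 68.7. The last 2 are near-identical copies, so their reads cannot be assigned with certainty. The constitutive chaperones HSPA8 and HSP90AB1 stood at 852 and 795, and 4238 and 5056. The median log2 ratio of the 32 was 0.03.

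The lowest ratio belonged to MYADM, a membrane protein of myeloid differentiation. It read 278 and 95.4 CPM, 2.91-fold lower at 12 h, after a peak of 874 at 2 h. TSC22D3, the glucocorticoid-induced leucine zipper, followed the same course with 322 at 2 h, 157 at 8 h and 66.1 at 12 h, which is under its 0 h level of 106. GABARAPL1, an autophagy protein of the ATG8 family, read 29.4 and 11.9 after a flat 26.9 to 31.5, and VANGL1, a planar polarity protein, 47.7 and 20.0. BMP4, a secreted morphogen, read 37.1 and 15.9 and so came back towards the 6.68 to 13.9 of the first 2 h. JDP2, a repressor of AP-1, read 49.4 and 22.3, and CKAP2, a spindle-associated protein, 55.1 and 25.2. The 12 lowest genes with a mean of 200 or more reads also included ERMAP, C5orf56 and A4GALT, with log2 ratios of -1.19, -1.11 and -1.06.

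**Figure D3:**
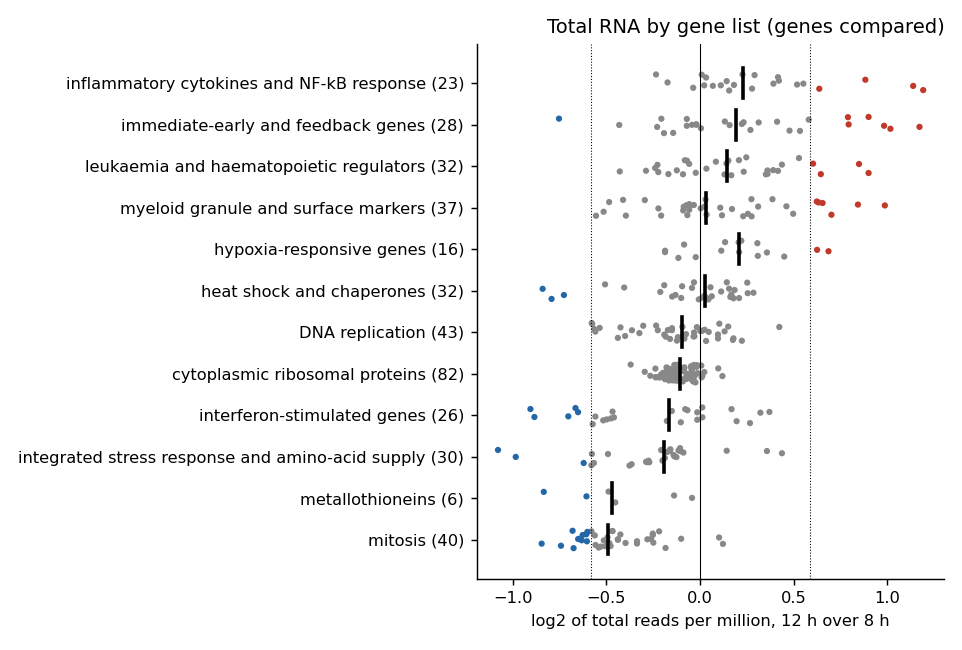
Log2 ratio of total CPM, 12 h over 8 h, for each compared gene of 12 lists (1 point per gene, number compared in brackets). Black bars are list medians, dotted lines mark 1.5-fold, and the medians run from -0.49 for mitosis to 0.23 for the cytokine and NF-kB list.

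How the late levels sat against the first 2 h differed between higher and lower genes. Of the 164 higher genes, 98 were above the range of the 5 early libraries at both late times, 37 were within it at 8 h and above it at 12 h, and 15 went from below it to above it. Of the 235 lower genes, 61 were below the early range at both times, 51 went from above it to below it, 47 from within it to below it, 43 from above it to within it, and 29 stayed above it. Over all 8431 genes, 3704 were above the range at both times and 1699 below it. The 8 h value was farther from the early median than the 12 h value in 24 of the 164 higher genes and in 102 of the 235 lower genes.

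Differences in total RNA lay mostly in the unlabelled reads. In the 164 higher genes the median ratio of unlabelled CPM, 12 h over 8 h, was 1.70, with all 164 above equality, while labelled CPM had a median ratio of 0.376. In the 235 lower genes the medians were 0.642 and 0.165, against 1.03 and 0.263 over all genes. Direction in the unlabelled reads is close to fixed by the choice of genes, because labelled reads were few in both sets: the median labelled share was 3.51% at 8 h and 0.669% at 12 h in the higher genes, and 4.86% and 1.32% in the lower genes. FCER1G illustrates a higher gene with remaining label, as its labelled reads went from 31.5 to 25.3 CPM while its unlabelled reads went from 355 to 669. MYADM illustrates a lower gene, with labelled reads at 50.9 and 5.90 CPM and unlabelled reads at 227 and 89.5.

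Label itself was lower after the further 4 h. Of 5109 genes with 20 or more labelled reads at 8 h, 4002 (78.3%) had a share at 12 h of 0.5 times the 8 h share or less. The median ratio of shares was 0.296, with 80% of genes from 0.115 to 0.688. If the decline between the libraries were exponential, the median ratio would correspond to a halving in 2.28 h, and the ratio over all reads, 0.513, to 4.16 h. The spread between gene groups was wide. The median ratio was 0.200 for 36 mitosis genes and 0.216 for 8 cytokine and NF-kB genes, but 0.644 for 31 myeloid genes, 0.746 for 78 respiratory chain genes and 0.885 for 82 ribosomal protein genes.

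Some transcripts with a sizeable share at 8 h were nearly free of label at 12 h. CEP170B, a centrosomal protein, had 56 labelled of 559 reads at 8 h (10.0%) and 0 of 316 at 12 h, where the interval reaches up to 1.16%. DLGAP5, a spindle protein, went from 11.4% to 0.375%, RAB3D, a small GTPase of secretory granules, from 10.4% to 0.557%, and its relative RAB8B from 11.2% to 0.644%. The total levels of RAB8B were alike in both libraries (56.4 and 56.1 CPM), whereas RAB3D stood at 47.0 and 64.9. NREP went from 17.4% to 1.02%, MIS18A, a centromere licensing factor, from 10.2% to 0.588%, and ARHGAP19 from 16.3% to 1.22%. The 12 h shares of RAB3D, RAB8B, NREP, MIS18A and ARHGAP19 rest on 3 labelled reads each and that of DLGAP5 on 1. A slower but well-covered case was CBFB, the partner of RUNX factors, with 62.2% in the pooled early libraries, 25.4% (23.8 to 27.1) at 8 h and 8.36% (7.08 to 9.79) at 12 h.

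At the other end the share did not go down. TMEM256 had 10.8% of its reads labelled at 8 h (8.22 to 13.9) and 14.2% at 12 h (11 to 18), and CETN2, a centriole protein, 21.9% (17.8 to 26.4) and 26.4% (21.0 to 32.4). For both, the intervals of the 8 h and 12 h shares overlapped. ELOB, a subunit of elongin and of ubiquitin ligases, stood at 3.42% and 3.89%, BSG, the glycoprotein basigin, at 6.54% and 7.26%, and CD74, the invariant chain of MHC class II, at 7.99% and 8.69%. Overlap of the intervals held for ELOB, BSG and CD74 as well, and the 95% interval of each of these 5 ratios of shares included 1.

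**Figure D4:**
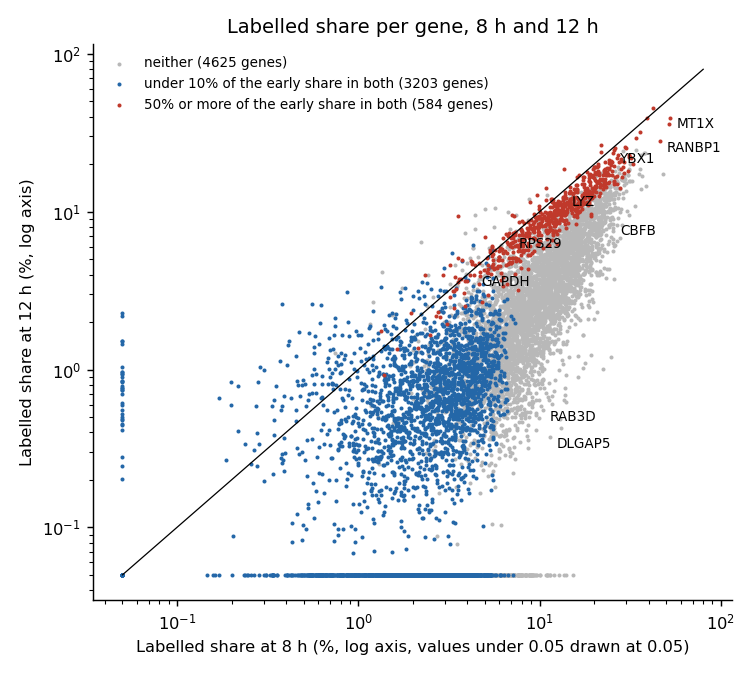
Labelled share of each gene's reads at 8 h (horizontal) and at 12 h (vertical), both in % on log axes, for 8412 genes with 20 or more labelled reads in the pooled early libraries. Red points (584 genes) kept 50% or more of their early share in both libraries, with median shares of 12.2% at 8 h and 9.58% at 12 h. Blue points (3203 genes) kept under 10% in both, and the diagonal marks equality.

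Label was kept through both late libraries by 584 of 8412 genes (6.94%), which means a share at 8 h and at 12 h of at least 50% of the pooled 0 to 40 min share. At 8 h alone 1364 genes met that limit and at 12 h alone 589, so 780 genes met it at 8 h but no longer at 12 h. The 5 genes that met it at 12 h but not at 8 h were AGA, FADS3, PITRM1, SEZ6L2 and TAPBPL, named after their values were seen, and none had more than 40 labelled reads in a late library. The opposite group, under 10% in both, held 3203 genes (38.1%). Genes that kept label had less of it to begin with, although the early share is itself part of the rule: their median share was 13.3% early, 12.2% at 8 h and 9.58% at 12 h, against 43.9%, 6.06% and 1.44% over all genes. They were also abundant, with a median of 209 CPM at 8 h against 46.7 over all genes. They held 37.0% of all labelled reads at 8 h and 55.5% at 12 h, while their part of all reads was 30.6% and 29.6%. HDDC2, CTSD and PKM lay just inside the limit at 12 h, at 50.1%, 50.1% and 50.2%, and YWHAQ, C1QBP and PHGDH just outside, at 49.9%, 49.8% and 49.7%. In total RNA, 1 of the 584 was past 1.5-fold upwards and 6 downwards.

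Most ribosomal protein genes were in the set. Of 82 cytoplasmic ribosomal protein genes, 76 kept label (6.94% of all genes did), with median shares of 9.09% early, 8.69% at 8 h and 7.67% at 12 h. RPS29 read 4866 and 4525 CPM and had 6.98% (6.76 to 7.19) and 6.86% (6.61 to 7.12) labelled, and RPL30 had 11.9% and 11.8%. RPL37 stood higher, at 18.8% and 17.1%, and RPL23A higher still, at 22% and 23.9%. The share thus differed several-fold between ribosomal proteins but barely between the 2 times. The 6 that did not keep label were RPL7L1, RPL39L, RPL22L1, RPL26L1, RPL13A and RPL13, and the first 4 of these are paralogues of the canonical genes. RPL13A had 24.0% early, 14.9% at 8 h and 8.78% at 12 h. Total RNA of the list was slightly lower at 12 h, under equality for 75 of 82 genes, against 4661 of all 8431. The median log2 ratio was -0.11, against -0.03 over all genes. No gene of the list was past 1.5-fold, where 4.73% of all genes were. With median-of-ratios scaling 68 of 82 were under equality. Processed pseudogenes of these genes are many, and the treatment of multiply mapping reads is not stated in the labels.

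Of 35 translation factors, 10 kept label, where 6.94% of all genes did. TPT1, the translationally controlled tumour protein, had 16.2% early, 14.8% at 8 h and 11.9% at 12 h, and EEF1B2, a subunit of the elongation factor complex, 7.51%, 7.47% and 6.10%. EEF1A1, the elongation factor itself, was counted with 472 and 227 reads only, with 51.9% and 36.1% labelled. It has many pseudogenes, so its reads are uncertain. PABPC1, the cytoplasmic poly(A)-binding protein, had 20.2%, 15.9% and 10.3%, close to the limit at 51.2% of its early share. YBX1, an RNA-binding protein of stored mRNA, kept its label in full: 22.3% early, 25.3% (24.8 to 25.8) at 8 h and 23.7% (23.2 to 24.3) at 12 h, with labelled reads at 667 and 687 CPM. RANBP1, a cofactor of nuclear transport, lost more, from 53.5% early to 46.1% and 27.9%, and still had one of the 12 largest shares at 12 h.

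Many energy genes kept label. Of 80 nuclear-encoded respiratory chain genes, 59 did, against 6.94% of all genes, with median shares of 18%, 13.4% and 9.60%. NDUFA4 had 20.6% early, 20.1% at 8 h and 19.3% at 12 h, UQCRH of complex III 15.5%, 16.1% and 14.0%, and COX4I1 of complex IV 10.3%, 10.9% and 8.87%. ATP5F1B, the catalytic subunit of ATP synthase, went from 30.5% to 28.2% and 21.1%. Members with low retention included UQCRFS1, NDUFS1 and NDUFV3. Of 75 mitochondrial ribosomal protein genes, whose products translate the mitochondrial genome, 3 kept label, a share near the 6.94% of all genes, and their median share went from 34.9% early to 10.3% and 2.93%. In glycolysis 9 of 18 genes kept label: ALDOA had 11.8%, 12.9% and 11.5%, ENO1 14.7%, 15.5% and 12.1%, LDHA 10.9%, 10.8% and 7.65%, and GAPDH 5.41%, 4.38% and 3.97%. The glycolytic genes that did not keep label included HK2, at 49.3%, 2.75% and 0.758%.

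Many myeloid and lysosomal transcripts kept label as well. Of 37 myeloid genes 17 kept label and 3 lost it, where 6.94% and 38.1% of all genes did. LYZ had 11.5% early, 13.8% (12.5 to 15.1) at 8 h and 12.8% (11.3 to 14.4) at 12 h, ELANE 4.94%, 5.55% and 5.42%, and S100A9, a calcium-binding alarmin, 6.31%, 5.83% and 4.43%. SRGN, the proteoglycan of secretory granules, kept 30.8% at 8 h against 30.4% early and then stood at 18.2% at 12 h. The surface genes that were higher in total RNA at 12 h did not keep label by the rule above, in which a higher total alone lowers the share. CD14 went from 17.3% to 0.504% and to 0 of 582 reads (interval up to 0.632%), and FCER1G from 20.4% to 8.13% and 3.65%. Of 32 lysosomal genes 10 kept label, among them NPC2, a cholesterol carrier (20.8%, 20.4% and 14.5%), and CD63, a membrane protein of late endosomes (10.9%, 10.1% and 9.08%). Of 36 proteasome genes 4 kept label at both times, not far from the 6.94% of all genes, with PSMB6 at 26.0%, 22.7% and 18.5%. At 8 h but not at 12 h, 14 more met the limit, as did 780 of all 8412 genes with enough early label.

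The metallothioneins combined large label shares with lower totals at 12 h. All 6 of these small metal-binding proteins kept label by the share rule, against 6.94% of all genes. A share can stay high while labelled reads fall, if unlabelled reads fall as well. Total CPM of the list was already under the early libraries at 8 h, with a median log2 difference of -0.87. From 8 h to 12 h the median ratio of labelled CPM was 0.644 and that of unlabelled CPM 0.740. All 6 also had a total ratio under equality, as had 4661 of all 8431 genes, with a median log2 ratio of -0.47. MT1X read 78.2 and 43.9 CPM (log2 -0.84), under its early range of 129.9 to 166, and had 53% of its reads labelled early, 52.3% (48.9 to 55.6) at 8 h and 39.6% (34.5 to 44.8) at 12 h. MT1G read 21.6 and 14.2 CPM, with 42.4% and 45.8% labelled. It was past 1.5-fold with library totals but not with either other scaling. MT1F read 180.1 and 128 with 35.6% and 32.2%, MT1E 296 and 269 with 31.3% and 22.2%, and MT2A 344 and 333 with 26.7% and 15.0%. In each of MT1X and MT1F both labelled and unlabelled CPM were lower at 12 h. For MT1X these were 40.9 and 17.3 labelled, and 37.3 and 26.5 unlabelled. The genes are close paralogues on chromosome 16, so reads may be shared among them. ACTB, a reference transcript, kept 17.7% and 12.2% labelled at 2830 and 2887 CPM.

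Metal response elements, the sites through which the metal sensor MTF1 acts, were looked for with the cores TGCACNC and TGCGCNC on either strand. All 3 metallothioneins with a promoter in the RefSeq table held both, against 11.1% and 32.5% of 6825 promoters. A window of MT1X and one of MT2A (GRCh38.p14, plus strand, chr16:56682310-56682339 and chr16:56608408-56608437) show the cores in capitals.
MT1X: ggccccgcggTGCGCCCggcgctgggctca
MT2A: cgcggcccGTGTGCAgagccgggTGCGCCC
The MT1X window holds 1 core and the MT2A window 2, the first of them read on the opposite strand, and the whole 300 bases hold 4 and 8.

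**Figure D5:**
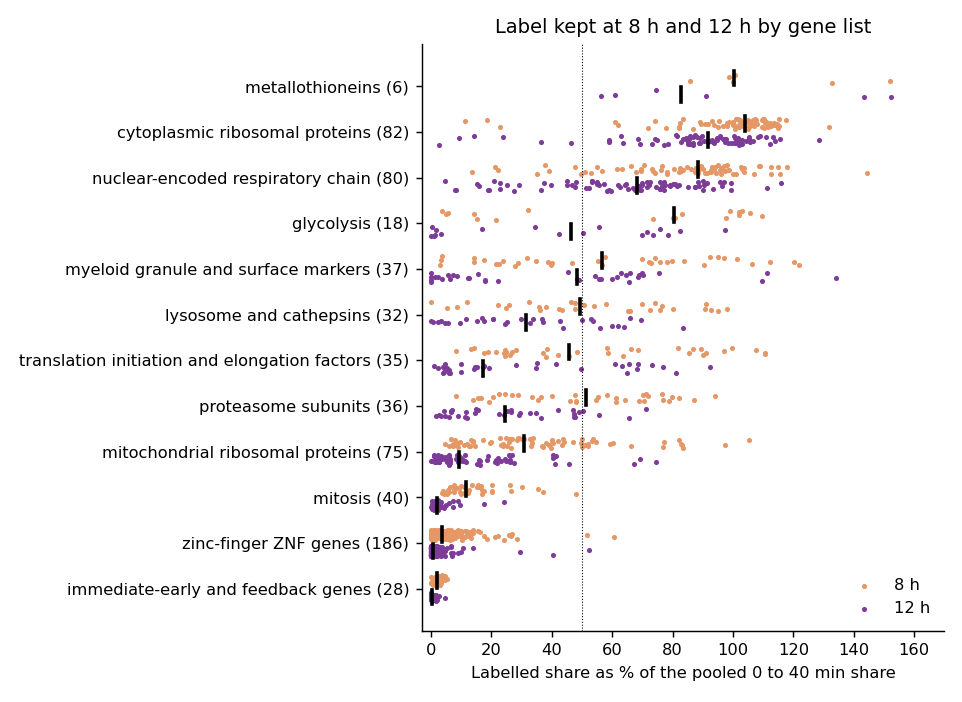
Labelled share at 8 h (orange) and 12 h (purple) as a percentage of the pooled 0 to 40 min share, 1 point per gene and time for 12 lists (genes with enough early label in brackets). Black bars are medians and the dotted line is the 50% limit, which 76 of 82 ribosomal protein genes and none of the 40 mitosis genes met at both times.

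Genes with the highest late label were few. A share of 20% or more in both late libraries was found for 37 genes, of which 31 also kept label by the rule above. PSMA2, a proteasome subunit, and SF3B6, a splicing factor, were 2 that did not, with 36.5% and 22.8%, and 37.9% and 23.5%, having begun at 47.7% and 53.7%. HLA-DRB1 had 29.4% at 12 h, but 28.0% of its 107 reads without 4sU were also counted as labelled, so this share is not a measure of 4sU. The same holds in part for HLA-DQB1, with 17.5% at 12 h and 6.56% of 61 reads without 4sU. No other gene that kept label had over 0.723% there. UBBP4, a ubiquitin pseudogene with 25.5% at 12 h, may share reads with the functional ubiquitin genes.

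At the opposite end, many regulators were cleared of label. Of 186 zinc-finger ZNF genes, 159 were under 10% of their early share in both libraries and 1, ZNF534, kept label, where 38.1% and 6.94% of all genes did. ZNF534 was also the 1 keeper past 1.5-fold upwards, with 21.9 and 37.5 CPM. The median ZNF share was 51.8% early, 2.07% at 8 h and 0.435% at 12 h. Of 32 leukaemia and haematopoietic regulators 23 were cleared (38.1% of all genes were) and none kept label, with HOXA9 at 57.7%, 4.53% and 1.00% and MCL1 at 53.3%, 1.41% and 0.137%. Mitosis genes started at a median of 66.9% and stood at 7.83% and 1.16%, and 18 of 40 were cleared, a share near the 38.1% of all genes. At 12 h the labelled reads of such genes are few, so differences among them were not detectable at this depth. MYC, for example, had 2 labelled of 213 reads at 8 h and 1 of 294 at 12 h.

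Genes that kept label had shorter annotated 3′ UTRs than genes that lost it, and fewer of them held motifs of unstable mRNAs. In GENCODE 29, the median UTR was 349.5 bases for 550 genes that kept label, 1660.0 for 3187 that lost it and 1267 for all 8335. Its T content was 27.8%, 30.7% and 30.2%. The heptamer TATTTAT occurred in 8.36% of the UTRs of keepers, 43.9% of those that lost label and 34.1% of all, and the Pumilio motif TGTANATA, bound by proteins that recruit deadenylases, in 7.64%, 40.2% and 29.8%. Longer UTRs have more room for a motif, so the same was counted within classes of length. Among UTRs of 200 to 500 bases TATTTAT occurred in 4.52% of 177 keepers and 15.2% of 348 genes that lost label. For 500 to 1000 bases the shares were 7.69% of 104 and 23.3% of 544, and for 1000 to 2000 bases 12.1% of 66 and 35.9% of 833. TGTANATA gave 3.39% and 15.8%, 10.6% and 26.1%, and 7.58% and 32.8% in the same classes. The order of keepers and losers was thus the same in each class, for both motifs. These are matches of letters in annotated UTRs and were not tested as sites. Each UTR is that of the annotated transcript that names the counted segment. A match in it need not lie in the RNA that gave the reads. Of the keepers looked at singly, YBX1 (400 bases), FTL (143 bases) and MT1X (147 bases) had no TATTTAT and RPL32 (1609 bases) had 1. FTL, the ferritin light chain, is among the 8 keepers with most reads, at 4493 and 4124 CPM and 17.3% (17 to 17.7) and 15.9% (15.5 to 16.3) labelled.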

How the data were processed

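The authors deposited raw counts for 3′ UTR segments, with all reads in one table and converted reads, called labelled here, in the other. Libraries were made with QuantSeq 3′ FWD and Drosophila S2 RNA was added, per the labels' protocols, and spike-in reads were left out. Trim Galore 0.6.5, bcl2fastq 2.17.1.14 and the builds hg19 and dm3 come from the submitters' processing notes. Not given in the sources used here are the aligner, the counter, the rule for multiply mapping reads and how many conversions made a read count as labelled, and every labelled share rests on that last choice.

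Of 56570 transcripts, 48045 (84.9%) matched GENCODE 29 names, and 5.65% of counts lay outside them. Each gene was its segment with most reads, since segments overlap, and 3056 segments on alternative contigs were left out. CPM used the sum over genes as the library total. Shares have Clopper-Pearson intervals and ratios of totals exact conditional binomial intervals, at 95%. With 1 library per time there was no test. Alternatives covered scaling (edgeR 4.0.16 TMM, DESeq2 1.42.0 size factors, R 4.3.3), the read minimum, the segment, the fold and the denominator. Scripts (Python 3.11.15, scipy 1.17.1) were tested on simulated data.

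Members and the 30 lists were chosen with earlier results of these data known. Genes named are the extremes of total ratio (12 each way, mean total 200 or more), of label kept (12 largest shares and 8 best covered), of share ratio (10 smallest and 8 largest), the extremes of each list and 9 fixed genes. Members of a list past 1.5-fold, and further examples, were named after their values were seen.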

Additional observations from a re-analysis of the deposited data

How the results depend on the processing

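The counts of genes past 1.5-fold depended on the read minimum and the size of the limit. A minimum mean of 20 reads gave 381 higher and 584 lower genes, a minimum of 500 gave 53 and 41, and no filter gave 1428 and 1926. A 2-fold limit gave 19 and 17. Raising the share to keep from 50% to 75% left 232 genes that kept label. The other settings stayed within 1.5 times of the reported counts: 179 and 197 with TMM factors, 184 and 192 with median-of-ratios factors (median log2 shifts to -0.00 and 0), 208 and 321 with all segments of a gene summed, and 471 keepers when labelled CPM replaced the share, of which 430 were shared with the reported 584. Of 137 named genes, total ratios left their counting interval for 10 with TMM factors and 12 with median-of-ratios factors. Each of these scalings shifts all log2 ratios by the same small amount, so no ratio past 1.5-fold could change sign. No paired analysis was possible because each time has 1 library and the labels give no replicate numbers. Depth limits the 12 h shares: 3 reads equal 0.361 CPM there, and genes with few labelled reads at 8 h cannot be followed further.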
